A study of Paralichthys olivaceus with 24 samples.

Results

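Genes whose deposited symbol carries a sarcomere or muscle cytoskeleton name were followed in muscle of olive flounder (Paralichthys olivaceus), a flatfish farmed in East Asia, at 4 water temperatures. The members are the rows whose symbol begins with the letters of a contractile or sarcomere gene family, such as myosin, troponin, tropomyosin, alpha-actin, leiomodin, myopalladin, junctophilin or ankrd. The genes acta1a, mylpf, ldb3b, myod1 and myog were left out by the same rule, and no expression level was asked for. This gave 31 genes of the 11646 in the table. The rule reads letters and not functions. Classed by symbol, 10 of the 31 belong to families of sarcomere, Z-disc or triad proteins. These 10 include tpm4, whose products lie mainly outside striated muscle in mammals. Another 7 encode kinases, unconventional myosins or actin-associated proteins that are not specific to sarcomeres, and 14 share only the letters of the rule. Of these 14, 13 are ankyrin repeat genes of the ankrd series and the other is tnni3k, the gene of a kinase named for its binding to troponin I. The name of the set therefore describes a minority of its members, and the 3 kinds of genes are kept apart here.

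The fish were 9 months old, were first held at 12 °C and were divided into 8 treatment groups of 15 fish. The libraries used here are the muscle libraries of the series called C in the sample titles, with 1 library each at 12, 18, 23 and 28 °C. The labels describe an acute and a chronic warming regime and do not say which of them C stands for. They give an interval of 3 h for the acute regime. For the chronic regime they give a change of 3 °C per hour and a hold of 20 h. The labels name no genotype and no treatment other than water temperature, and how many fish stand behind a library is not stated. The labels list 24 samples, and the other 20, from gill, liver and the muscle of series A, were not analysed here.

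A sarcomere is the repeating unit of a muscle fibre, in which thick filaments of myosin slide between thin filaments of actin. Z-discs anchor the thin filaments, giant proteins such as titin set the order of the lattice, and junctophilins hold the membranes of the triad together so that an electrical signal can release calcium. Slow fibres, fast fibres and heart muscle use different paralogs of the same filament proteins. Myosin needs dedicated folding factors, and leiomodins start new actin filaments.

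Values are RPKM, read numbers corrected for transcript length and for library size, so levels can be compared between genes. Folds compare RPKM + 1 in the warmer library with RPKM + 1 at 12 °C on a log2 scale. Adding 1 shrinks the folds of genes near or below 1 RPKM. A call as higher or lower needed at least 2-fold on this scale and an average of at least 1 RPKM over both libraries. With 1 library per temperature no difference has a replicate check and no p-value is given. All comparisons with 12 °C share its library, and the few folds between 28 and 23 °C do not use it. The table holds no counts and its absolute depth is unknown. Steps of single reads gave relative depths of 1.004, 0.981 and 1.013 at 18, 23 and 28 °C against 12 °C. The table lists only genes that the authors placed at least 2-fold from 12 °C in some comparison, so each member differs somewhere by construction.

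The muscle identity of the libraries rests on abundant fast-muscle genes. The myosin light chain gene mylpf, which is no member, reached 25861 RPKM at 23 °C and 20633 RPKM at 28 °C, against 25770.5 RPKM at 12 °C, and was listed at 0 at 18 °C, which beside such levels can be a failed estimate. RNA of other tissues was also measured. The 16 liver marker rows summed to 42.9, 4239, 51.6 and 399.8 RPKM at 12, 18, 23 and 28 °C, and all 16 were above 12 °C at both 18 and 28 °C. The 3 exocrine pancreas rows summed to 7.69, 125.8, 11.0 and 30.6 RPKM. The 3 smooth muscle rows (acta2, cnn1 and mylk, of which mylk is a member) summed to 3.93, 6.33, 4.95 and 28.8 RPKM. The part of these tissues in the values below was not tested. In tissue RNA, fewer cells of a type and less RNA per cell cannot be told apart.

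Of the 31 members, 18 reached 1 RPKM in some library and 14 were at 1 RPKM or more in all 4. Of the 10 sarcomere, Z-disc and triad genes, 8 reached 1 RPKM. So did 4 of the 7 other contractile and actin-associated genes, and 6 of the 14 that share only the letters. At 28 °C, 17 members met the minimum; 3 of them were called higher than at 12 °C and 6 lower. Over all rows, 34.2% were higher and 22.5% lower by the same rule. The calls differed by class. Of the sarcomere, Z-disc and triad genes, 8 met the minimum at 28 °C, with 3 higher and 2 lower. Of the other members 9 met it, with 0 higher and 4 lower. At 23 °C, 1 of 18 was higher and 1 lower, against 2.98% and 10.8% of all rows. At 18 °C, 0 of 18 were higher and 0 lower, against 7.66% and 2.68% of all rows. These are counts of libraries without replicates, and the minimum takes in genes that are high in 1 of the pair alone. The median log2 fold of all 31 members was 0.01, -0.02 and -0.08 at 18, 23 and 28 °C, and over all 11646 rows it was 0.00, -0.03 and 0.02. The added 1 RPKM holds the 13 members below 1 RPKM near 0. Over the 18 members that reached 1 RPKM the medians were 0.01, -0.36 and -0.85, against -0.05, -0.21 and 0.10 over the 5323 such rows of the table. These 18 mix the classes. With members below 1 RPKM included, the median at 28 °C was -0.03 over the 10 sarcomere, Z-disc and triad genes. Over the other 21 members it was -0.11. Members held near 0 enter these class medians, so they are not on the same base as the -0.85. Among members that reached 1 RPKM, the sarcomere, Z-disc and triad genes lay on both sides at 28 °C, from -2.18 to 3.65. The others that did so lay between -1.64 and -0.54, apart from mylk at 0.88.

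**Figure D1:**
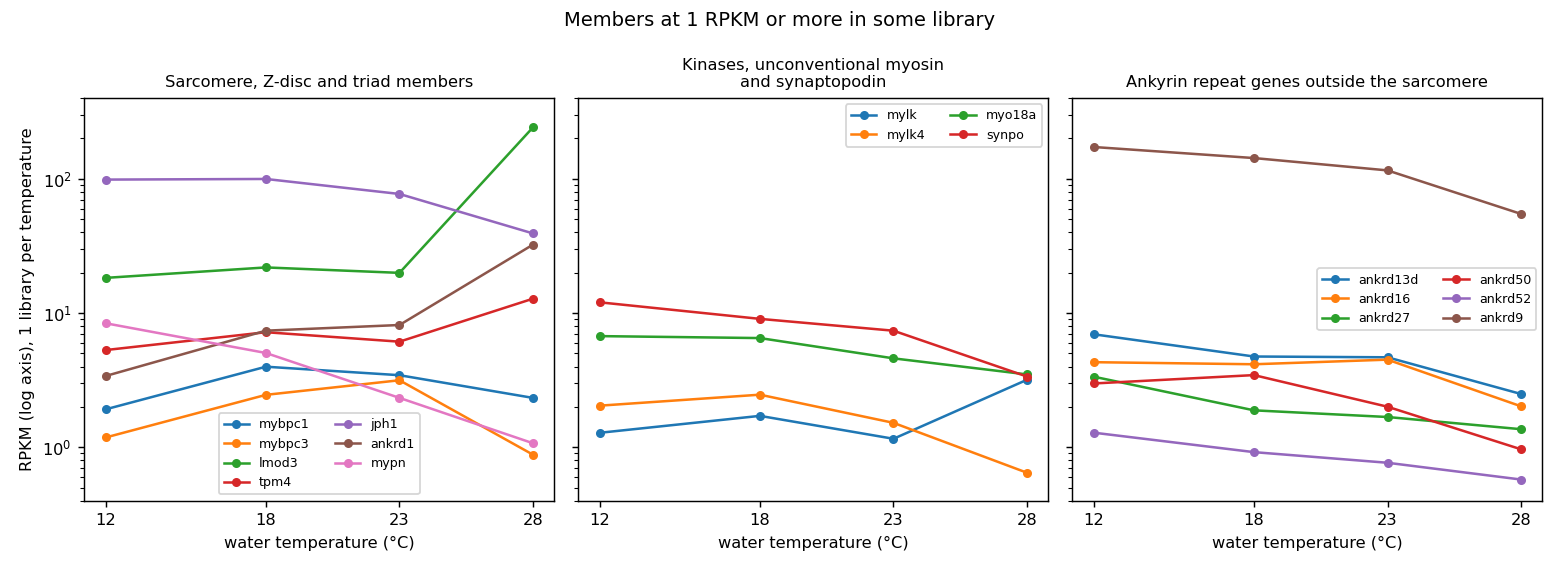
RPKM (log axis) of 17 of the 18 members that reached 1 RPKM, against water temperature in °C, with 1 point per library and lines joining the 4 libraries. In the left panel lmod3 climbs to 241.7 RPKM at 28 °C and mypn declines to 1.07 RPKM; in the right panel ankrd9 is the most abundant gene in each library.

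The thin filament held the gene with the largest fold of the set. Leiomodin 3, encoded by lmod3, starts actin filaments in skeletal muscle, and its loss causes nemaline myopathy in humans. It was at 18.3, 21.9, 19.9 and 241.7 RPKM at 12, 18, 23 and 28 °C. The first 3 libraries lay close together and the 28 °C library stood far above them. At 28 °C the plain ratio to 12 °C was 13.2, and the log2 fold was 3.65 over 12 °C and 3.54 over 23 °C. Its paralog lmod2, the leiomodin most abundant in the mammalian heart, was at 0.257, 0.116, 0.119 and 0.207 RPKM. Those values of lmod2 can be read as 11, 5, 5 and 9 reads, too few to separate the libraries.

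Tropomyosin 4, from a family of coiled-coil proteins that lie along actin, was the other thin filament gene that was higher at 28 °C. Its gene tpm4 was at 5.30, 7.20, 6.12 and 12.8 RPKM, with the 28 °C library on top. The log2 fold at 28 °C was 1.13, just past 2-fold. In mammals tpm4 products are found mainly outside striated muscle. The liver and smooth muscle marker sums were above 12 °C at both 18 and 28 °C. The liver sum was highest at 18 °C and the smooth muscle sum at 28 °C. The share of tpm4 that comes from other tissues was not tested. The cardiac-type troponin T gene tnnt2 was listed at 0 in 3 libraries and at 0.0539 RPKM at 18 °C.

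Z-disc and stretch-sensing members went in opposite directions. The gene ankrd1 encodes a cardiac ankyrin repeat protein that binds titin and responds to stretch and injury of muscle. It was at 3.40, 7.39, 8.15 and 32.3 RPKM, higher at each step, and was the only 1 of the 18 members at 1 RPKM or more with that order (5.56%), against 10.4% of such rows of the table. Its log2 folds over 12 °C were 0.93, 1.06 and 2.92 at 18, 23 and 28 °C. The 12 °C library alone was low and the 28 °C library was well above the others. Myopalladin, encoded by mypn, is a Z-disc and I-band protein that binds nebulin, alpha-actinin and, in mammals, the ankrd1 product. It was at 8.40, 5.04, 2.34 and 1.07 RPKM, lower at each step, with log2 folds of -0.64, -1.49 and -2.18. This was the largest negative fold of the set at both 23 and 28 °C, and in plain RPKM the 28 °C value was 0.128 times that at 12 °C.

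**Figure D2:**
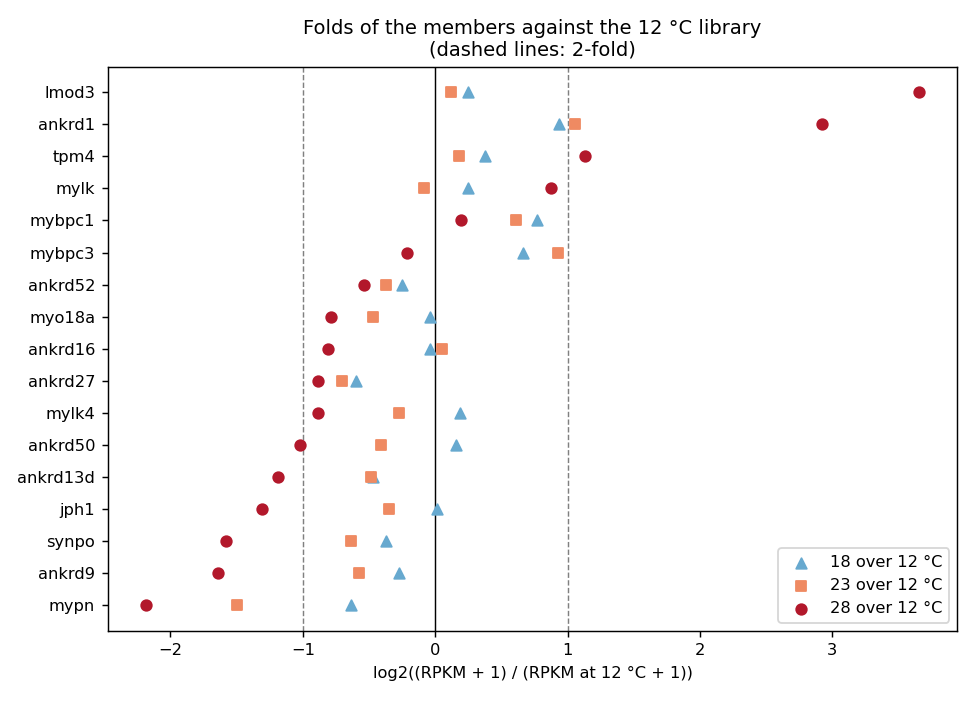
Log2 fold over the 12 °C library, with 1 RPKM added to both values, for 17 of the 18 members that reached 1 RPKM, at 18, 23 and 28 °C; dashed lines mark 2-fold. At 28 °C lmod3, ankrd1 and tpm4 lie right of the upper line and ankrd50, ankrd13d, jph1, synpo, ankrd9 and mypn left of the lower line.

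The triad gene was lower at 28 °C. Junctophilin 1 bridges the surface membrane and the calcium store of skeletal muscle. Its gene jph1 was at 98.6, 99.7, 77.1 and 39.2 RPKM, level at the 2 lower temperatures and lowest at 28 °C, where the log2 fold was -1.31. Its direction at 28 °C was negative under each scaling tried.

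Thick filament members were the myosin-binding protein C genes, which encode proteins that clamp and regulate myosin. The slow-fibre form mybpc1 was at 1.92, 3.99, 3.45 and 2.33 RPKM. The form typical of the heart in mammals, mybpc3, was at 1.18, 2.46, 3.16 and 0.881 RPKM. Both were above 12 °C at 18 and 23 °C. At 28 °C mybpc1 was 1.22 times the 12 °C value and mybpc3 0.744 times. In none of the comparisons with 12 °C did they reach 2-fold on the log2(RPKM + 1) scale, although the plain ratio at 18 °C was 2.08 for both. Between 28 and 23 °C the log2 fold of mybpc3 was -1.14. After scaling of the libraries by median ratios, which raises the 23 °C library, its fold at 23 °C was 1.21 in place of 0.93. The folds of mybpc1 at 18 and 23 °C were then 0.775 and 0.889, in place of 0.77 and 0.61. Whether mybpc1 is highest at 18 or 23 °C thus depended on the scaling.

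Of the 7 contractile and actin-associated members that are not specific to sarcomeres, 4 reached 1 RPKM. Synaptopodin, an actin-associated protein known from kidney podocytes and neuronal spines, had the largest fold among them: synpo was at 12.0, 9.05, 7.39 and 3.36 RPKM, and its log2 fold at 28 °C was -1.58. The unconventional myosin gene myo18a was at 6.74, 6.51, 4.60 and 3.49 RPKM, with a log2 fold of -0.78. Both were lowest at 28 °C. The kinase genes differed in direction. The gene mylk, whose product activates smooth muscle myosin, was at 1.28, 1.72, 1.16 and 3.19 RPKM, highest at 28 °C with a log2 fold of 0.88. The related kinase gene mylk4 was at 2.04, 2.47, 1.52 and 0.647 RPKM, lowest at 28 °C with a log2 fold of -0.89. Neither met the 2-fold count, although their plain ratios at 28 °C were 2.48 and 0.317. The smooth muscle marker cnn1 was at 21.2 RPKM at 28 °C, against 0.667 RPKM at 12 °C. The share of mylk that comes from smooth muscle was not tested.

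The genes that share only letters with the rule held the most abundant member at 12, 18 and 23 °C, whereas at 28 °C lmod3 was above it. The gene ankrd9, which encodes an ankyrin repeat protein that acts with a ubiquitin ligase, was at 172.5, 142.7, 115.5 and 54.7 RPKM, and its log2 fold at 28 °C was -1.64. The gene ankrd13d, whose human product binds ubiquitylated surface receptors, was at 6.95, 4.75, 4.68 and 2.50 RPKM and the endosomal gene ankrd50 at 2.99, 3.45, 2.01 and 0.967 RPKM. Their log2 folds at 28 °C were -1.19 and -1.02. These 3 genes were at least 2-fold lower at 28 °C than at 12 °C. The 3 others at 1 RPKM or more lay within 2-fold on this scale, with log2 folds between -0.88 and -0.54 at 28 °C. They were ankrd27, a gene of an endosomal exchange factor, ankrd16, whose product aids alanyl-tRNA synthetase in the mouse, and ankrd52, a subunit gene of protein phosphatase 6. Their levels were 1.37, 2.02 and 0.576 RPKM at 28 °C, against 3.36, 4.31 and 1.29 RPKM at 12 °C.

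The 28 °C library was the lowest of the 4 for 13 of the 18 members that reached 1 RPKM (72.2%), against 40.1% of the 5323 rows of the table that did so. Those 13 were the same genes under median scaling and with the authors' constants, where the share of all such rows was 42.3% and 43.2%. As deposited, 8 of the 18 (44.4%) declined with each warmer library, against 24.7% of such rows. Among them were mypn, synpo, myo18a, ankrd9, ankrd13d, ankrd27 and ankrd52. This order depended on the scaling, as the median ratio scale of the 23 °C library was -0.35 on the log2 scale against 12 °C: under median scaling 2 of the 8, mypn and myo18a, kept it, and with the authors' constants 3 did. The members' share was then 11.1% under median scaling, against 15.1% of all such rows, and 16.7% with the authors' constants, against 13.9%. The higher share of members with this order was thus seen in the values as deposited and not under median scaling.

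The remaining 13 members stayed below 1 RPKM in every library. In 8 of the 13 all values fell on whole multiples of 1 read, to within 0.02 reads, and the smallest such reading is given. For the other 5, myo6 and ankrd22 among them, no reading was found and the read numbers are unknown. The unconventional myosin gene myo5c, a motor of epithelial secretory cells, had 0, 1, 2 and 11 reads. Its value at 28 °C was 0.13 RPKM. The gene ankrd34a had 1, 0, 0 and 6 reads, and tnni3k had 6, 9, 2 and 0. At such numbers the order of the levels is loosely set. The ankyrin repeat genes ankrd13b and ankrd33b had 12, 7, 10 and 6 reads and 25, 26, 6 and 17 reads. The gene ankrd29 had 0, 5, 7 and 5 reads, and the motor gene myo15b 2, 7, 2 and 4. The genes ankrd34c and ankrd63 were each listed above 0 in 1 library, at 0.107 RPKM at 28 °C and at 0.0207 RPKM at 23 °C. The motor gene myo6, with a role in inward transport along actin, was at 0.179, 0.384, 0.467 and 0.479 RPKM, and ankrd22 was at 0.0625, 0.0623, 0.383 and 0.554 RPKM. In 7 members at least 1 library was listed at exactly 0. None of the 7 reached 1 RPKM elsewhere, so none has the form of a failed estimate beside a high value.

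In the authors' deposited table, whose comparison columns use plain ratios with a constant for each library, 10 of the 31 members passed 2-fold upward and 14 downward at 28 °C, against 40.6% and 36.1% of all rows. At 23 °C the authors' deposited table had 8 higher and 3 lower, against 22.0% and 17.0% of all rows, and at 18 °C 5 higher and 1 lower, against 20.5% and 15.7%. These counts include members below 1 RPKM in every library. At 28 °C such members were ankrd22, ankrd29, ankrd34a, ankrd34c, myo5c and myo6 upward, and ankrd13b and tnni3k downward. Also counted upward were ankrd63 at 23 °C and tnnt2 at 18 °C, each listed above 0 in 1 library alone. The authors' deposited table also sorts genes into 7 clusters. Its cluster 2 held 14 of the 31 members (45.2%), against 30.5% of all rows, and among them were mypn, jph1, synpo, mylk4 and ankrd9. Cluster 4 of the authors' deposited table held 7 members (22.6%), against 35.5% of all rows, among them lmod3, ankrd1, tpm4 and mylk.

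Many rows of the same families carry a numbered ID in place of a symbol and are not members. Names from RefSeq's annotation of ASM2471397v2 gave 42 of these a symbol that meets the rule. By symbol, 30 of them were classed with sarcomere, Z-disc or triad families. These 30 include the smooth muscle marker acta2 and the mainly non-muscle actn1. These rows were chosen after values were seen and are given as the surroundings of the members. At 28 °C, 23 of them met the minimum, and 3 were called higher and 8 lower than at 12 °C, against 34.2% and 22.5% of all rows.

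Z-disc and scaffold rows among them held values on the same side as mypn. The synaptopodin 2 family genes, whose products bind filamin and alpha-actinin at the Z-disc, were synpo2la at 89.3, 60.5, 37.5 and 12.3 RPKM and synpo2b at 35.9, 32.5, 21.9 and 6.65 RPKM. The scaffold gene obsl1b was at 8.07, 5.64, 3.13 and 0.939 RPKM. These 3 were lower at each step, also under both other scalings. At 28 °C their log2 folds were -2.77, -2.27 and -2.23, beside -2.18 for mypn. The kinase gene mylk4a was at 29.0, 28.3, 12.4 and 2.62 RPKM, on the same side as its relative mylk4, and the myospryn gene cmya5 at 17.6, 15.0, 13.8 and 8.19 RPKM. Against these stood xirp1, an actin-binding Xin repeat gene, at 0.801, 1.62, 1.01 and 25.5 RPKM, with a log2 fold of 3.88 at 28 °C. The alpha-actinin gene actn1, mainly of non-muscle cells in mammals, and the LIM protein gene fhl1a were at 5.11 and 9.45 RPKM at 28 °C, against 1.47 and 3.65 RPKM at 12 °C.

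**Figure D3:**
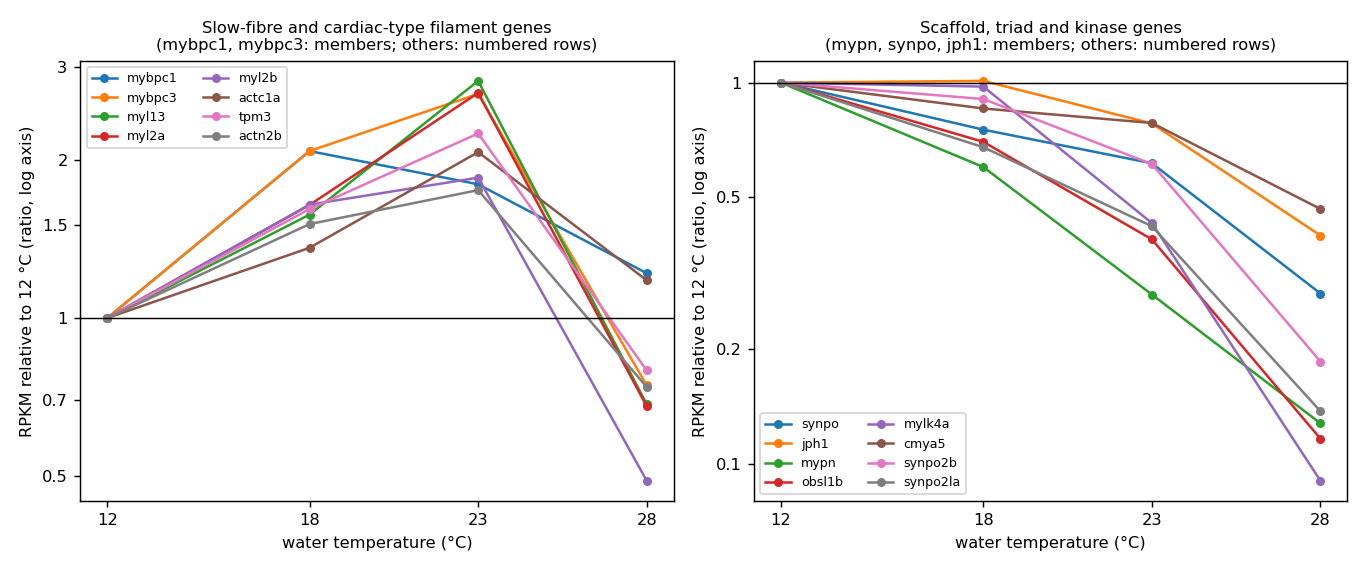
RPKM as deposited, relative to the 12 °C library (ratio, log axis), against water temperature in °C, 1 library per temperature. On the left mybpc3 and the numbered rows myl2a, myl2b, myl13, tpm3, actc1a and actn2b are highest at 23 °C and lower at 28 °C, while mybpc1 is highest at 18 °C; on the right mypn and synpo2la decline to 0.128 and 0.138 of their 12 °C values.

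The maximum of mybpc3 at 23 °C was shared by some numbered rows of slow-fibre and cardiac-type filament genes and not by others. There were 13 numbered thick and thin filament rows that reached 1 RPKM, the smooth muscle marker acta2 among them. As deposited, 5 were highest at 23 °C, 4 at 18 °C, 2 at 12 °C and 2 at 28 °C. Among all rows of the table that reached 1 RPKM, the shares highest at 23, 18, 12 and 28 °C were 4.92%, 15.9%, 37.3% and 41.9%. The rows below were chosen after their values were seen. The regulatory light chain gene myl2b was at 92.6, 152.1, 171.2 and 45.4 RPKM and its paralog myl2a at 4.83, 7.92, 12.9 and 3.28 RPKM. The slow tropomyosin gene tpm3 was at 13.7, 22.0, 30.6 and 10.9 RPKM. The cardiac actin gene actc1a was at 106.3, 144.6, 219.9 and 125.5 RPKM, and the myosin light chain gene myl13 at 45.4, 71.4, 128.2 and 31.1 RPKM. The alpha-actinin gene actn2b, a Z-disc row that is not among the 13, was at 4.06, 6.12, 7.10 and 3.00 RPKM. Each of these was highest at 23 °C. Others had another order. The cardiac-type troponin T gene tnnt2b was at 4.17, 11.6, 2.97 and 1.70 RPKM, highest at 18 °C and below 12 °C at 23 °C. The slow myosin heavy chain gene myh7ba was at 2.12, 2.01, 1.86 and 0.918 RPKM, lower at each step as deposited. It did not keep this order under median scaling or with the authors' constants. The gene lmod2b was at 0.528, 1.77, 0.773 and 0.374 RPKM, highest at 18 °C. In the marker list of slow fibres, which includes mybpc1, 6 of 7 rows were above 12 °C at 18 °C, 6 at 23 °C and 1 at 28 °C. Of the 5323 rows of the table that reached 1 RPKM, 2323, 1823 and 2727 were above 12 °C at these temperatures. The sums of the slow list were 118.6, 193.0, 226.2 and 65.7 RPKM, with myl2b the largest part in each library. The exception at 18 and 23 °C, in the values as deposited, was the slow troponin C gene tnnc1a. It was at 0.501 RPKM at 28 °C, against 1.64 RPKM at 12 °C. Its decline at each step was not kept under either other scaling. In the list of fast fibres, 2 of 5 rows were above 12 °C at 18 °C, 2 at 23 °C and 0 at 28 °C, with 1 row listed at 0 at 18 °C and 1 at 23 °C. Of the calcium pump rows in the fast list, atp2a1 was at 17.0, 23.9, 34.7 and 8.88 RPKM, also highest at 23 °C. The far more abundant atp2a1l was at 15859, 15287, 0 and 14940 RPKM. Its 0 at 23 °C, beside such levels, can be a failed estimate. Whether the pieces of muscle differed in their share of slow fibres was not tested, and the labels do not say which muscle was taken.

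Partner genes outside the rule differed by role. Of 10 rows for myosin folding and filament assembly, 8 met the minimum, with 6 called higher and 1 lower at 28 °C. Over all rows, 34.2% were higher. Among the 6 were 2 rows of the general chaperone Hsp90. The row hsp90aa1.1 was at 4188 RPKM at 28 °C, against 21.1 RPKM at 12 °C, and hsp90aa1.2 at 50.2 RPKM, against 1.41 RPKM. The methyltransferase gene smyd1 reached 2429 RPKM at 28 °C, against 36.7 RPKM at 12 °C, and the myosin chaperone gene unc45b 888.0 RPKM, against 25.6 RPKM. The kelch protein gene klhl40, whose product stabilises leiomodin 3 in the mouse, was at 6.73, 6.13, 4.70 and 15.0 RPKM, highest in the same library as lmod3. Its relative klhl41 had 5.51 RPKM at 28 °C, against 0.326 RPKM at 12 °C. The far more abundant kelch gene klhl31 went the other way, with 292.8 RPKM at 28 °C, against 569.1 RPKM at 12 °C. Its log2 fold of -0.96 lay just within 2-fold. The gene smyd2b was the 1 called lower, with 29.4 RPKM at 28 °C, against 114.6 RPKM at 12 °C.

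**Figure D4:**
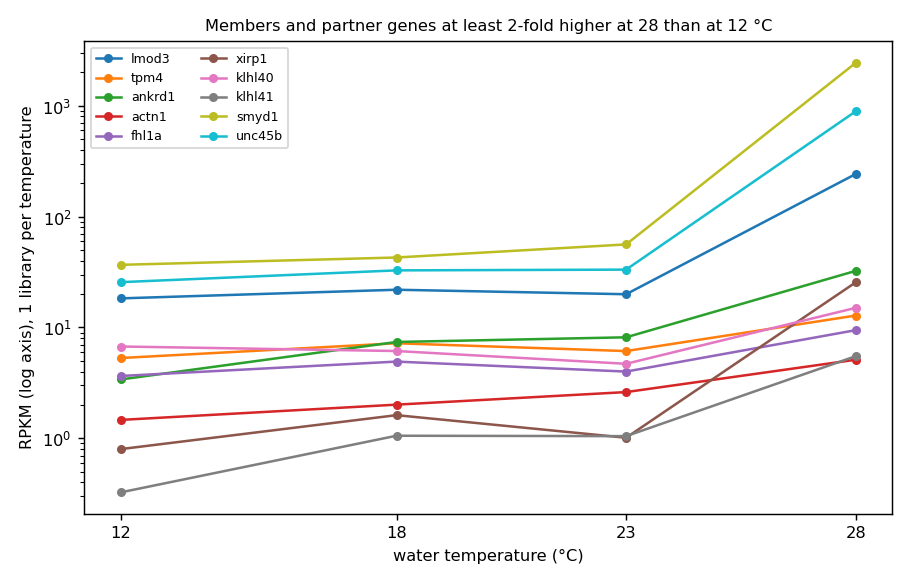
RPKM (log axis) against water temperature in °C, 1 library per temperature, for the members lmod3, ankrd1 and tpm4, the numbered rows xirp1, actn1 and fhl1a, and the partner genes smyd1, unc45b, klhl40 and klhl41. All 10 are highest at 28 °C; lmod3 lies at 241.7 RPKM there and smyd1 at 2429 RPKM.

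Costamere and intermediate filament genes, which tie the sarcomere to the cell surface, were mostly called lower at 28 °C. Among the 7 above the minimum, 5 were called lower than at 12 °C and 0 higher, against 22.5% lower and 34.2% higher over all rows. The ankyrin gene ank2a, also above the minimum, was at 1.37 RPKM at 28 °C, against 0.989 RPKM at 12 °C, with a log2 fold of 0.25, and the desmin gene des was below the minimum, with a log2 fold of 0.14. The integrin gene itga7 had 4.10 RPKM at 28 °C, against 14.9 RPKM at 12 °C, and the ankyrin gene ank1, 107.1 RPKM, against 240.6 RPKM. For excitation and contraction coupling, 1 of 9 genes was higher and 3 lower at 28 °C. The triad adaptor gene stac3, which has a row under its symbol and a numbered row, had 20.5 RPKM at 28 °C in the numbered row, against 85.4 RPKM at 12 °C. Beside it, jph1 had 39.2 RPKM at 28 °C, against 98.6 RPKM at 12 °C. Of 4 turnover genes that met the minimum, 1 was higher and 3 were lower at 28 °C. Among the 3 was the muscle ubiquitin ligase gene trim55, with 4.37 RPKM at 28 °C, against 15.4 RPKM at 12 °C. Another of the 3, fbxo32, was at 103.4, 16.2, 12.7 and 17.2 RPKM at 12, 18, 23 and 28 °C, already low at 18 °C.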

How the data were processed

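RNA-seq of muscle was compared between 4 libraries, 1 for each temperature. The deposited values are RPKM made by the authors. The submitters' processing notes name TopHat2 and Cufflinks with no version. Build and gene models are not stated in the sources used here. The authors' comparison columns are natural log values: in 11635, 11641 and 11633 rows they equal the natural log of the ratio of RPKM, floored at 0.01, times a constant (0.942, 1.272 and 0.910 at 18, 23 and 28 °C), within 0.00001, while the log2 label stands per the file headers. From the RPKM, log2 folds with a pseudocount of 1, counts at 2-fold with a mean of at least 1 RPKM, and medians were computed with Python 3.11.15, numpy 2.4.6 and pandas 2.3.3, and checked on simulated data. The fixed rule for naming took the members with the largest folds and levels in each role; a few more were named after their values were seen. Partner and marker lists took fish paralog suffixes. Of 7526 numbered rows, 5836 were found in RefSeq and 2788 took a symbol. Near-identical paralogs may share reads, since the counting is not stated. Reads per gene were inferred from steps in low values. The planned search by product description and the promoter and protein sequences could not be used here. The values of 1 member are not reported here. The members and lists were chosen with earlier results of these data known. Pseudocounts, minimum, scaling and membership were varied.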

Additional observations from a re-analysis of the deposited data

How the results depend on the processing

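No paired analysis was possible because each temperature has 1 library. Depth limits the 13 members below 1 RPKM. The median ratio scale of the 23 °C library was -0.35 on the log2 scale against 12 °C, and those of 18 and 28 °C were within 0.1; relative to it, the folds at 23 °C of mypn and ankrd1 were -1.24 and 1.38, and jph1 was at 0.00 in place of -0.35. At 28 °C the counts of 3 higher and 6 lower members were unchanged under median scaling and with no minimum. Under median scaling they were of 17 members, against 34.8% higher and 21.6% lower over all rows. With no minimum they were of 31, against 13.5% and 8.71%. With the authors' constants 3 of 16 were higher and 7 lower, against 30.3% and 26.7%. With a pseudocount of 0.1 or 0.01, 10 of 17 were lower, against 35.1% and 36.7% of all rows, and 4 were higher, against 44.0% and 44.4%. With a minimum of 5 RPKM, 3 of 8 were lower, against 31.8% of all rows, and 3 were higher, against 47.7%. In the sarcomere classes alone 2 of 8 were lower, against 22.5%, and 3 were higher, against 34.2%. At 18 °C a pseudocount of 0.1 gave 2 higher of 18 and 0.01 gave 3, against 10.3% and 10.7% of all rows. At 23 °C both pseudocounts, median scaling and the authors' constants each gave 2 higher of 18, against 5.54% to 6.0% of all rows. Medians of all members at 23 and 28 °C were -0.12 and -0.39 with a pseudocount of 0.1, -0.22 and -0.42 with 0.01, and -0.22 and -0.38 without members listed at 0; at 18 °C the sarcomere classes alone had 0.16. Adding the numbered rows was an alternative chosen after seeing the data. With them, 2 of 41 were higher at 18 °C, against 7.66% of all rows. At 23 °C, 5 of 39 were higher and 4 lower, against 2.98% and 10.8%. At 28 °C, 6 of 40 were higher and 14 lower, against 34.2% and 22.5%. Of 216 alternative folds of 18 named genes, 20 gained or lost a call with the 1 RPKM minimum and 0 called folds changed sign. With a pseudocount of 0.01, lmod2, below the minimum, passed 2-fold at 18 and 23 °C (-1.08 and -1.05). The sign changed in 4 folds that lay within 2-fold both ways, among them mylk at 23 °C, 0.12 under both other scalings against -0.08, and jph1 at 18 °C, -0.07 with the authors' constants against 0.02.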
